A study of Homo sapiens with 7 samples.

Results

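The HL cell lines HDLM-2 and L-540, which derive from T cells, were compared with KM-H2, L-1236, L-428, SUP-HD1 and U-HO1, which derive from B cells. These 2 and 5 lines are all 7 arrays of the series, with 1 array per line, so the comparison covers every sample. All are established human lines from Hodgkin lymphoma (HL) that were profiled as cultured cells, and the sources describe no treatment for these arrays. The origin of each line is background knowledge keyed on its name, because the labels give the name and the disease but not the cell of origin, and the label of HDLM-2 also carries the spelling HDML-2. Total RNA was labelled with biotin and hybridised to an oligonucleotide array, and a gene is given below as the log2 level of the probe set that was brightest on average, so that a difference of 1 is a doubling. The arrays came from 2 laboratories, with no record of which of them handled which line, so laboratory and line cannot be told apart. The spread between lines of a group is a spread between lines of different patients and holds no repeat of a culture. The limma p-values below measure differences against that spread, after limma draws it towards a spread shared by all probe sets.

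The malignant cells of HL are Hodgkin/Reed-Sternberg (HRS) cells, and in most patients they descend from germinal centre B cells that have lost much of their B-cell programme. A small share of HL cases and lines stems from T cells instead. T cells recognise antigen through the T-cell receptor and its CD3 and zeta chains, and cytotoxic T cells kill with perforin and granzymes, whereas B-cell identity rests on transcription factors such as PAX5, EBF1 and the octamer factors with their coactivator POU2AF1.

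Few genes followed the origin of the lines. The widest gaps were at SEPTIN10, the zeta chain gene CD247, the perforin gene PRF1, SOWAHC and SPEF2 on the T-cell side, and MARCKS and BCL11A on the B-cell side. A gene was called clearly separated when the lowest line of one group lay at least 1 above the highest line of the other and every line of the higher group lay above the background of its array. Of 19775 measured genes, 93 were clearly separated with both T-cell-derived lines higher, which is 0.47% of all genes, and 21 with both lower, which is 0.106%. The limma test, adjusted over all probe sets by the Benjamini-Hochberg method, called 7 genes higher in the T-cell-derived lines at adjusted p under 0.05 (0.0354% of the genes) and 1 gene lower (0.00506%). All 8 called genes were clearly separated. Among 54613 probe sets, both T-cell-derived lines lay above all 5 others at 2544 (4.66%) and below all of them at 1942 (3.56%), with no minimum on the gap. For a single gene, the exact permutation test of 2 against 5 lines has 21 arrangements and cannot give a two-sided p under 0.0952, so separation is a description. Were the lines alike, a given pair would lie above all others at 1 probe set in 21, and below them as often. Neither share of probe sets exceeds that, so these shares are no result about origin. The unadjusted limma p was under 0.05 at 3.97% of probe sets. The median difference over all genes was -0.01.

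**Figure D1:**
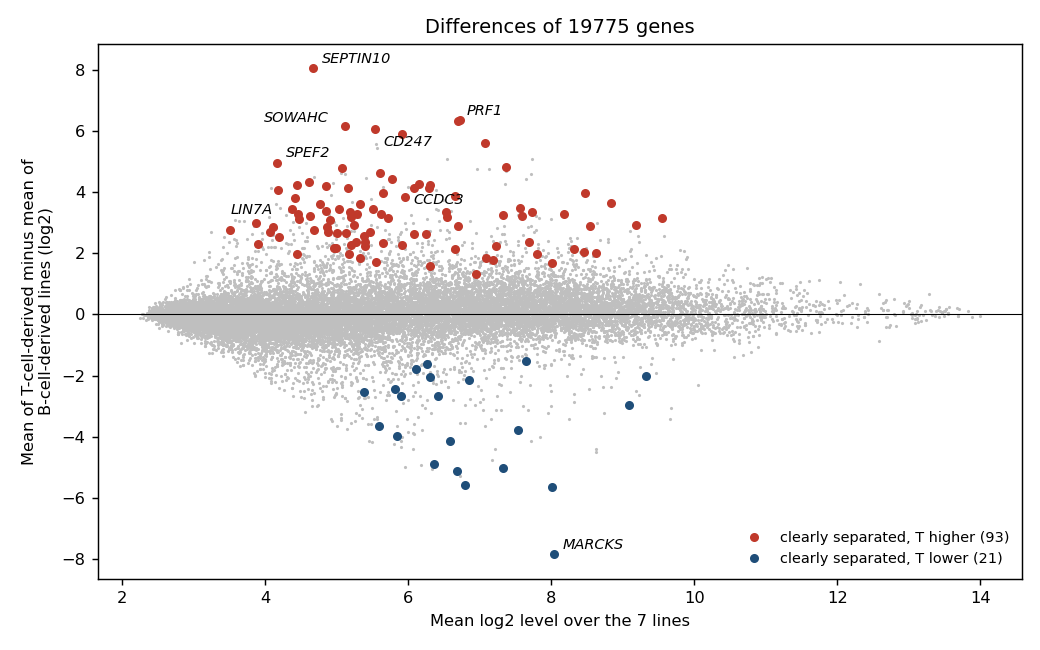
Difference between the mean of the 2 T-cell-derived and the mean of the 5 B-cell-derived lines (log2, vertical axis) against the mean log2 level over the 7 lines (horizontal axis) for each of 19775 genes. Grey points are genes that were not clearly separated, red points the 93 with both T-cell-derived lines higher and blue points the 21 with both lower, and names mark the 8 genes with adjusted p under 0.05 in limma, of which SEPTIN10 and MARCKS lie at the extremes.

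The background of an array, set from 107 olfactory receptor probe sets at their 95th percentile, ran from 4.49 to 4.86 in 6 lines and was 5.59 in L-1236. In U-HO1 the 18S ribosomal RNA control read 11.12 against 5.23 to 7.06 in the other lines, and the 3′ probe set of ACTB exceeded the 5′ one by 2.11 against 0.06 to 0.54. L-1236 and U-HO1 both belong to the B-cell-derived group. Without this pair, the clearly separated genes numbered 166 higher and 108 lower in the T-cell-derived lines. Leaving out lines can only add such genes. Without L-1236 alone the lower genes numbered 65, and without U-HO1 alone 32. Whether the background or the RNA of these 2 lines added to the rise was not tested. Pearson's r between the arrays of HDLM-2 and L-540 was 0.894 across probe sets, which equals that of L-428 and SUP-HD1. It ran from 0.800 to 0.894 within the B-cell-derived lines and from 0.819 to 0.886 between the groups.

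SEPTIN10 encodes a septin, a GTP-binding protein that assembles into filaments of the cytoskeleton, and SOWAHC encodes an ankyrin repeat protein. They are neighbours on chromosome 2 and are transcribed away from each other. The windows from 250 bases before to 50 bases after their starts, in RefSeq for GRCh38.p14, share 103 bases, and the starts lie 398 bases apart. These windows are shown because both genes separated the groups together. Each is written 5′ to 3′ on the strand of its gene, chr2:109613917-109614216 (minus strand) for SEPTIN10 and chr2:109614114-109614413 (plus strand) for SOWAHC, and capitals mark a match to the RUNX motif TGTGGT on either strand.
SEPTIN10: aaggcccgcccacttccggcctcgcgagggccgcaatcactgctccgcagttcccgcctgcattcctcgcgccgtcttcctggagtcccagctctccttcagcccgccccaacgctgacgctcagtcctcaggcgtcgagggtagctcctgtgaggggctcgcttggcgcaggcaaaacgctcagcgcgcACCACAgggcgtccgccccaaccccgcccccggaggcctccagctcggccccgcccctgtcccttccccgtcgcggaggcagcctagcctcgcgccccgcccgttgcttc
SOWAHC: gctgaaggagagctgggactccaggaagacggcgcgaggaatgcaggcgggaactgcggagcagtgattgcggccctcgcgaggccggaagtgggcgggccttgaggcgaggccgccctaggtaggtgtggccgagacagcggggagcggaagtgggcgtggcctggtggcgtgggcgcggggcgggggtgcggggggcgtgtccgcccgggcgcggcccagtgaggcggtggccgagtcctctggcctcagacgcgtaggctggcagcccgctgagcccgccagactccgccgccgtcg
The 2 windows hold 33 and 36 CG pairs, more than 82.8% and 87.3% of the 35116 promoter windows in the table.

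The SEPTIN10 level was 10.62 in HDLM-2 and 10.20 in L-540, against 2.42 in KM-H2, 2.17 in L-1236, 2.46 in L-428, 2.32 in SUP-HD1 and 2.45 in U-HO1. All 5 B-cell-derived lines were below background, so the gene was at least 47.1-fold higher in the T-cell-derived lines. The measured difference was 8.05 (SE 0.267, limma adjusted p = 0.000198), the widest of all genes in either direction. The second SEPTIN10 probe set read 9.67 and 8.50 against 2.64 to 3.28.

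The SOWAHC level was 10.53 in HDLM-2 and 8.51 in L-540, against 4.08 in KM-H2, 3.52 in L-1236, 3.28 in L-428, 3.15 in SUP-HD1 and 2.77 in U-HO1. It too was below background in every B-cell-derived line and was at least 25.4-fold higher in the others (difference 6.16, SE 0.577, limma adjusted p = 0.0239). The groups did not overlap at the second SOWAHC probe set either, where the T-cell-derived lines read 11.61 and 9.49 and the B-cell-derived lines 2.58 to 2.90. The genes on either side did not share the pattern. SH3RF3, next to SEPTIN10, stayed between 2.76 and 3.73 in all 7 lines, and LOC100506563, next to SOWAHC, was above background in L-428 at 5.84 and lay at 2.81 and 3.28 in HDLM-2 and L-540.

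**Figure D2:**
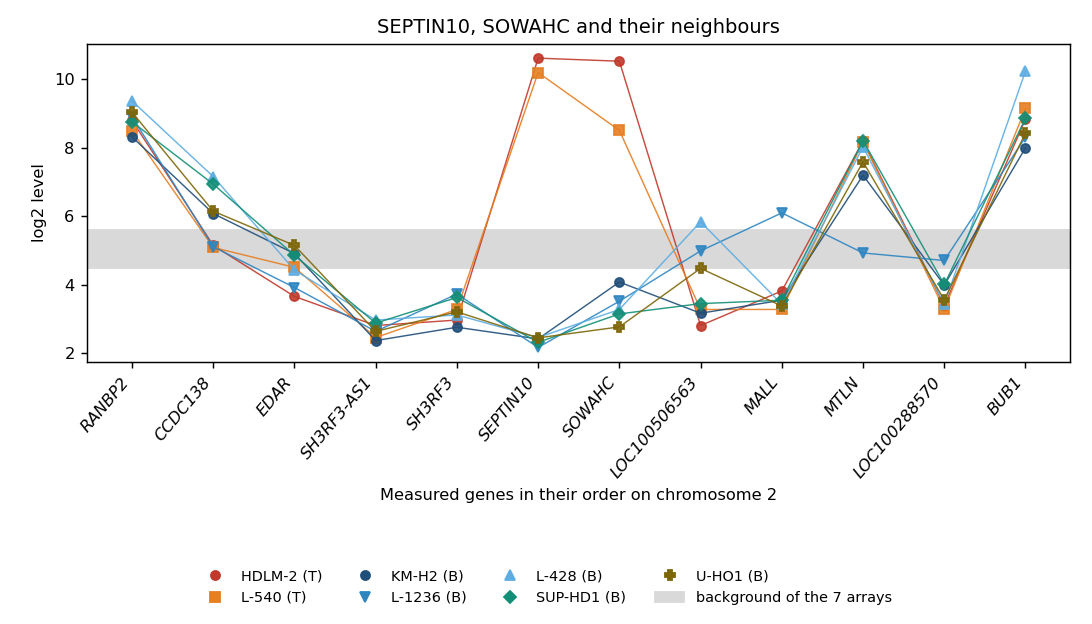
Log2 levels (vertical axis) of 12 measured genes in their order on chromosome 2 (horizontal axis), with 1 coloured line and marker per cell line and the range of the 7 array backgrounds in grey. Only at SEPTIN10 and SOWAHC, among these 12 genes, do HDLM-2 and L-540 leave the other lines, to levels between 8.51 and 10.62.

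Such pairs of clearly separated neighbours occurred at 4 other places, and these genes were chosen after their values were seen. CYTIP and ACVR1C on chromosome 2 differed by 6.37 and 3.61, and the next gene ACVR1 by 1.69. HEMK1 and CISH on chromosome 3 differed by 2.35 and 2.90, and CCDC3 and OPTN on chromosome 10 by 3.83 and 2.05. In the other direction, ST20-AS1 and the apoptosis inhibitor gene BCL2A1 on chromosome 15 differed by -2.54 and -3.76. CYTIP, which encodes an adapter that restrains cytohesins and cell adhesion, also split the B-cell-derived lines, with 8.02 in KM-H2 and 8.60 in SUP-HD1 and 2.58 to 2.70 in the other 3.

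Of the chains of the T-cell receptor complex, CD247 separated the groups. It encodes the zeta chain, which carries the receptor signal into the cell. Its level was 9.81 in HDLM-2 and 9.90 in L-540, against 3.82 in KM-H2, 4.74 in L-1236, 3.28 in L-428, 3.35 in SUP-HD1 and 3.82 in U-HO1. Every B-cell-derived line was below background, and CD247 was at least 32.1-fold higher in the T-cell-derived lines (difference 6.05, SE 0.428, limma adjusted p = 0.00917). A second CD247 probe set showed no separation, with 4.06 and 4.51 in the T-cell-derived lines and 4.51 to 5.38 in the others, and it passed background in KM-H2, L-428 and SUP-HD1 only.

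CD2, an adhesion and costimulatory receptor of T and NK cells, was 8.95 in HDLM-2 and 7.28 in L-540, against 2.67 in KM-H2, 4.86 in L-1236, 4.29 in L-428, 4.58 in SUP-HD1 and 3.49 in U-HO1. The groups lay 2.42 apart, and of the B-cell-derived lines only SUP-HD1 passed its background (limma adjusted p = 0.256). The CD3 chains, which assemble with the receptor, did not follow. CD3E was 4.06 in HDLM-2 and 4.71 in L-540, where it just passed background, and 3.63 to 4.36 in the B-cell-derived lines. CD3D was 4.36 and 4.65 in the T-cell-derived lines and reached 8.89 in KM-H2, while CD3G stayed between 3.28 and 5.36 everywhere. The receptor gene TRBC1 was above background in L-540 alone, at 5.60.

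Of the 15 measured genes of the T-cell receptor complex and its coreceptors, 2 were clearly separated with the T-cell-derived lines higher, and 1 passed the limma threshold. Over all genes, 0.47% were clearly separated and higher and 0.106% lower, the share to set beside this and every list count below. A count of 0 in a short list is near that share and no result about its members. The median difference of this list was 0.04 beside -0.01 over all genes. Where levels under background were set to it, the median of this list was -0.17, like that of all genes. CD4, the helper coreceptor, was 5.78 and 7.30 in the T-cell-derived lines and highest in KM-H2 at 8.46. CD8A, the cytotoxic coreceptor, was below background in both T-cell-derived lines, at 3.56 and 3.99, and above it in SUP-HD1 at 5.68 and U-HO1 at 6.08. CD27, a costimulatory receptor of the TNF receptor family, reached 8.07 in L-1236. The receptor signalling genes gave no clearly separated member among 13, near the share over all genes. Of these, the kinase gene LCK was below background in all 7 lines, from 3.56 to 4.48, and ZAP70 passed it in KM-H2 only, at 6.57. THEMIS, a signalling gene of thymocytes, was 8.22 in HDLM-2, 2.30 in L-540 and 2.42 to 10.61 in the B-cell-derived lines.

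**Figure D3:**
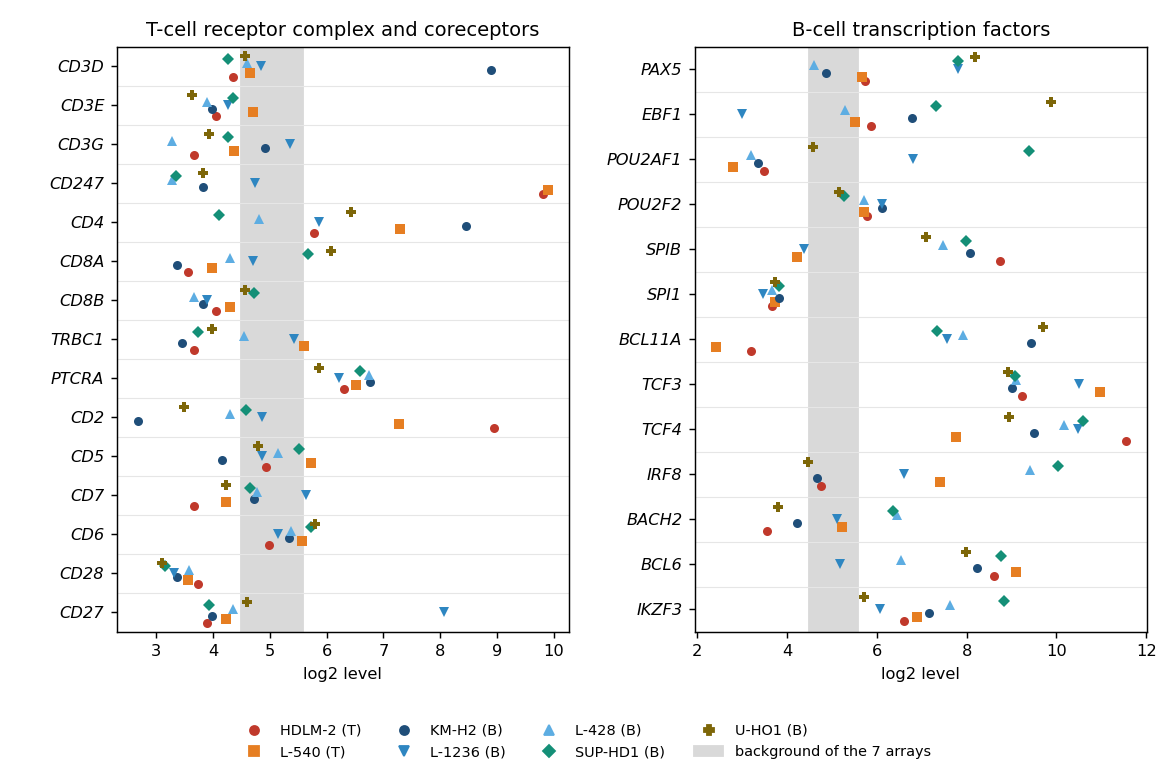
Log2 levels (horizontal axes) of the 15 measured genes of the T-cell receptor complex with coreceptors (left) and the 13 measured B-cell transcription factor genes (right) in the 7 lines, with 1 marker per line and the range of the 7 array backgrounds in grey. CD247 and CD2 on the left and BCL11A on the right split the lines by origin, and CD3D is high in the B-cell-derived line KM-H2 at 8.89.

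Transcription factors of T cells showed no clearly separated gene among 14 measured, near the share over all genes and so no result about the list. GATA3, which directs T-helper cells, was above background in every line, from 8.26 in L-540 to 11.23 in L-428. LEF1, a factor of early lymphocytes, was 3.39 in HDLM-2 and 3.20 in L-540 and lay below background there, while 4 B-cell-derived lines held 7.01 to 10.12 and U-HO1 held 3.63. ETS1 was 8.95 and 9.94 in the T-cell-derived lines and ranged from 2.51 to 8.98 in the others.

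Cytotoxic genes were led by PRF1, which encodes perforin, the pore-forming protein of killer cells. Its level was 11.08 in HDLM-2 and 11.34 in L-540, against 4.23 in KM-H2, 6.19 in L-1236, 4.92 in L-428, 4.01 in SUP-HD1 and 5.07 in U-HO1. The B-cell-derived lines passed their background in 3 of 5 cases and the groups stayed 4.89 apart (difference 6.33, SE 0.576, limma adjusted p = 0.0206). Both PRF1 probe sets separated the groups. The PRF1 promoter window, chr10:70602692-70602991 on the minus strand of GRCh38.p14, is shown because the gene is the cytotoxic member with the widest gap, and capitals again mark a match to the RUNX motif.
PRF1: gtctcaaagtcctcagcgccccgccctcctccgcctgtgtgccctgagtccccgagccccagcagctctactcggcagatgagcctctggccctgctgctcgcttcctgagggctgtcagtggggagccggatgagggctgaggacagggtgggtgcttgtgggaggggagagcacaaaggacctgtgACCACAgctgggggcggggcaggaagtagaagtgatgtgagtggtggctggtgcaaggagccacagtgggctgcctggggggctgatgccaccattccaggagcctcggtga
This window has 9 CG pairs, and that of CD247 has 6, with no match to the motifs searched.

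The granzyme genes did not accompany PRF1 in both lines. GZMB, the granzyme that cleaves caspases in target cells, was 12.01 in L-540 and 4.75 in HDLM-2, below background, and 2.94 to 4.54 in the B-cell-derived lines. NKG7, a granule protein gene, was 11.22 in L-540, 5.52 in HDLM-2 and 3.15 to 4.77 in the others. L-540 thus lay far above HDLM-2 for these genes, and the gap to the B-cell-derived lines was 0.21 for GZMB and 0.75 for NKG7. Of 19 measured cytotoxic and NK-cell genes, 1 was clearly separated, the median difference was 0.39, and it was 0.07 where levels under background were set to it.

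The B-cell-derived lines shared MARCKS, which encodes a membrane-bound substrate of protein kinase C that binds actin. It read 2.61 in HDLM-2 and 2.25 in L-540, against 9.97 in KM-H2, 9.81 in L-1236, 10.91 in L-428, 10.18 in SUP-HD1 and 10.51 in U-HO1. MARCKS was below background in both T-cell-derived lines and at least 48.2-fold lower there (difference -7.85, SE 0.368, limma adjusted p = 0.00133). All 5 MARCKS probe sets showed the same order, with gaps from -1.61 to -7.20. It was the only gene lower in the T-cell-derived lines that passed the limma threshold.

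BCL11A, a zinc finger factor needed for B-cell development, was the only clearly separated gene of 13 measured B-cell transcription factors. Its level was 3.21 in HDLM-2 and 2.41 in L-540, against 9.44 in KM-H2, 7.56 in L-1236, 7.92 in L-428, 7.33 in SUP-HD1 and 9.70 in U-HO1. It was below background in both T-cell-derived lines and at least 13.0-fold lower there, with a limma adjusted p of 0.0919. All 4 BCL11A probe sets separated the groups, by 1.51 to 4.12. The RefSeq table lists 5 start windows for this gene, and the first, chr2:60528486-60528785 on the minus strand of GRCh38.p14, is shown as the B-cell counterpart, with capitals for a RUNX match and for a match to TTCNNNGAA, the STAT motif.
BCL11A: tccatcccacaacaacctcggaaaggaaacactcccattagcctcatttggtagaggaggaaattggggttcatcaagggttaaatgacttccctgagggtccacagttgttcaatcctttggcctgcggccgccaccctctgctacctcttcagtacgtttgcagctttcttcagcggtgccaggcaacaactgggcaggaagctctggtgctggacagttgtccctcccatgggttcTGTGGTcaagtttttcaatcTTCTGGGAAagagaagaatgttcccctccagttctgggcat
It holds 5 CG pairs, against 25 in the window of MARCKS.

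In these windows 5 motifs were searched on both strands. The RUNX motif TGTGGT lies in 13.1% of all promoter windows. The shares were 10.3% for the GATA motif, spelled AGATAA, and 7.66% for the STAT motif. They were 1.77% for the octamer, spelled ATGCAAAT, and 1.21% for the palindromic EBF motif. SEPTIN10, PRF1 and the BCL11A window shown each had 1 RUNX match, that BCL11A window also had 1 STAT match, and no 2 matches overlapped. SOWAHC, CD247 and MARCKS had none.

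At their brightest probe sets, the other B-cell transcription factors overlapped between the groups. PAX5, the factor that maintains B-cell identity, was 5.74 in HDLM-2 and 5.68 in L-540, between 4.60 in L-428 and 8.18 in U-HO1. The groups did not overlap at the second PAX5 probe set, with a gap of -0.28, too narrow for clear separation. There HDLM-2 and L-540 read 3.73 and 4.37, below background. The B-cell-derived lines read 4.65 to 5.65, each above its background, though L-1236 and U-HO1 only just. EBF1 was 5.88 and 5.52 in the T-cell-derived lines, and the B-cell-derived lines ran from below background in L-1236 to 9.88 in U-HO1. The groups overlapped at the other EBF1 probe sets too. Both T-cell-derived lines were below background at some of these, such as 4.21 and 4.22, and above it elsewhere. POU2AF1, the octamer coactivator, was below background in both T-cell-derived lines, at 3.48 and 2.80, and so were KM-H2 with 3.36 and L-428 with 3.20, while SUP-HD1 held 9.39 and L-1236 6.81. SPIB was highest of all lines in HDLM-2, at 8.74, and below background in L-540 at 4.22. The list had a median difference of -0.52, with 10 of 13 members below 0.

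Of the 19 genes of the B-cell receptor complex and its signalling, none was clearly separated, near the share over all genes. The coreceptor gene MS4A1, which encodes CD20, was below background in all 7 lines. CD24 was 3.66 and 3.20 in the T-cell-derived lines, and only KM-H2 with 8.53 and L-428 with 8.07 lay above background. Plasma cell genes gave no clearly separated member of 9, again near the share over all genes. MZB1, an endoplasmic reticulum gene of antibody-secreting cells, was 10.02 in HDLM-2 and 6.95 in L-540, against 4.38 to 6.89.

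Markers of several lineages were read in all 7 lines. Of 12 measured T-cell markers, 5 were above background in HDLM-2 and 7 in L-540, beside 6 in KM-H2 and SUP-HD1, 5 in L-428, 3 in U-HO1 and 2 in L-1236. Their summed levels, which include levels under background, were 64.8 in HDLM-2 and 68.4 in L-540, against 55.2 to 64.5 in the others. KM-H2, at 64.5, lay next to HDLM-2. The sums hold CD247 and CD2, which separated the groups above and differed by 6.05 and 4.14. CD3E, CD5 and LAT differed by 0.36 to 0.68. The other markers, CD3D, CD3G, CD7, LCK, ZAP70, BCL11B and GATA3, were lower on average in the T-cell-derived lines, by -0.31 to -1.15. Of 8 measured B-cell markers, 3 were above background in HDLM-2 and 5 in L-540, and 2 to 5 in the B-cell-derived lines, with summed levels of 37.2 and 40.7 against 35.6 to 45.8. All 5 HRS-cell markers passed background in HDLM-2 and L-540, and 4 or 5 did in each other line. Of 5 myeloid markers, 2 and 1 passed in the T-cell-derived lines and 0 to 2 in the others.

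**Figure D4:**
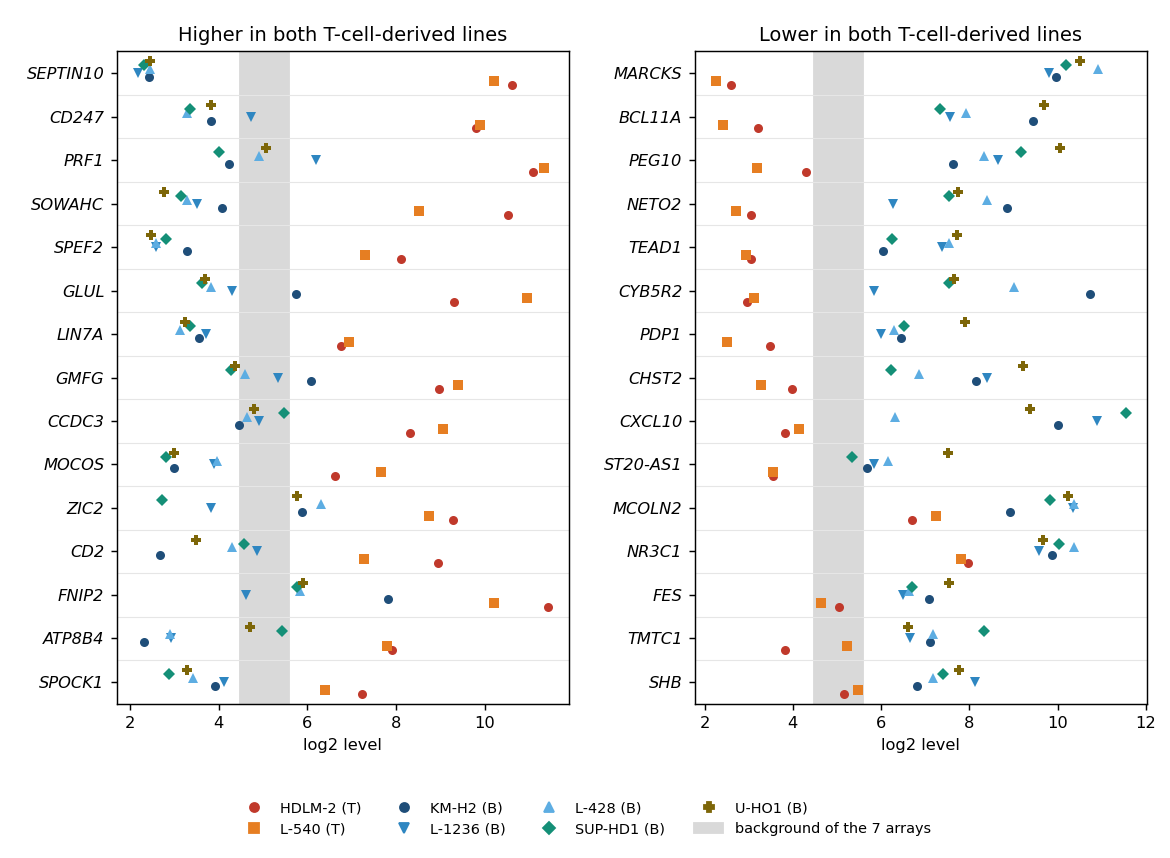
Log2 levels (horizontal axes) of the 15 clearly separated genes with the widest gap that were higher (left) or lower (right) in both T-cell-derived lines, with 1 marker per line and the range of the 7 array backgrounds in grey. In every row HDLM-2 and L-540 lie on the same side of all 5 B-cell-derived lines, with the widest gaps at SEPTIN10 (7.74) and MARCKS (7.20).

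The remaining genes called by limma were SPEF2, LIN7A and CCDC3. SPEF2, a gene of sperm flagella and cilia, was 8.12 in HDLM-2 and 7.29 in L-540, against 2.48 to 3.28, all below background, and so at least 7.23-fold higher (limma adjusted p = 0.00917). LIN7A, which encodes a scaffold protein of cell junctions, was 6.76 and 6.94 against 3.12 to 3.71, at least 3.99-fold higher (limma adjusted p = 0.0123). CCDC3 was 8.31 and 9.07 against 4.46 to 5.47, a difference of 3.83 (limma adjusted p = 0.0274). SEPTIN10 and MARCKS kept an adjusted p under 0.05 with any line left out. The other 6 did not pass without HDLM-2, when the group rested on L-540, and CD247, PRF1, LIN7A and CCDC3 did not pass without L-540. Calls also ended with both T-cell-derived lines kept. PRF1 did not pass without KM-H2, L-428 or U-HO1. CCDC3 did not pass without KM-H2, L-1236, L-428 or U-HO1, SOWAHC without L-1236, L-428, SUP-HD1 or U-HO1, and LIN7A without L-428.

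Wide gaps without a limma call were found at genes of varied function. GLUL, the glutamine synthetase gene, was 9.30 in HDLM-2 and 10.95 in L-540, against 5.75 in KM-H2 and 3.63 to 4.29 in the other B-cell-derived lines, all of which were below background (limma adjusted p = 0.0673). MOCOS, the molybdenum cofactor sulfurase gene, was 6.62 and 7.67 against 2.81 to 3.96. FNIP2, which encodes a partner of folliculin, was 11.43 and 10.21 against 4.61 to 7.82. ZIC2, a zinc finger factor of the developing brain, was 9.29 and 8.75, and varied from 2.73 in SUP-HD1 to 6.31 in L-428 among the B-cell-derived lines. GMFG, an actin regulator of blood cells, was 8.97 and 9.40 against 4.27 to 6.08. The phospholipid flippase gene ATP8B4 and the proteoglycan gene SPOCK1 differed by 4.20 and 3.30.

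On the lower side, PEG10, an imprinted gene of retroviral origin, was 4.29 in HDLM-2 and 3.20 in L-540, against 7.64 to 10.05. At their brightest probe sets, NETO2, TEAD1, CYB5R2, PDP1 and CHST2 were likewise below background in both T-cell-derived lines and above it in all 5 others. TEAD1, the transcription factor that YAP binds, read 3.05 and 2.95 against 6.04 to 7.72. CYB5R2, a cytochrome b5 reductase gene, read 2.97 and 3.11 against 5.83 to 10.73. NR3C1, which encodes the glucocorticoid receptor, was above background in all lines, at 7.96 and 7.80 against 9.58 to 10.37. The cation channel gene MCOLN2 was 6.69 and 7.25 against 8.93 to 10.38, and the tyrosine kinase gene FES 5.04 and 4.65 against 6.49 to 7.54. Of the 21 genes, 12 were below background in both T-cell-derived lines. None of NETO2, TEAD1, CYB5R2, PDP1, CHST2, NR3C1, MCOLN2 and FES passed the limma threshold.

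Among the cytokine receptor and JAK-STAT genes, IL2RA, IL6R and CISH were clearly separated. IL2RA, the alpha chain of the interleukin 2 receptor, was 11.35 in HDLM-2 and 10.80 in L-540, against 9.80 in SUP-HD1, 5.56 in KM-H2 and 3.17 to 4.93 in L-1236, L-428 and U-HO1. SUP-HD1 lay just far enough under L-540 for the separation and above the other B-cell-derived lines (limma adjusted p = 0.968). IL6R, the interleukin 6 receptor gene, was 8.41 and 7.50 against 3.43 to 5.91. CISH, a STAT5 target that restrains cytokine signals, was 10.86 and 10.37 against 5.64 in KM-H2 and 6.91 to 8.99 elsewhere. SOCS3 was 9.32 and 10.63 and overlapped with SUP-HD1 at 9.59.

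Of 19 cytokine receptor genes, 2 were clearly separated and higher, none lower, and the median difference was 0.86, between 0.64 and 0.85 under the other scalings. IL5RA went the other way, with 3.73 and 3.91, below background, against 3.73 in KM-H2 and 6.05 to 8.19 in the other B-cell-derived lines. Of 26 JAK-STAT and NFkB pathway genes, CISH was the only clearly separated member. REL, an NFkB subunit gene, was 6.23 and 6.72 against 7.25 to 10.60.

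Among costimulatory and checkpoint receptors, TNFRSF9 and HAVCR2 were clearly separated, 2 of 14. TNFRSF9, which encodes the costimulator 4-1BB, was 11.30 in HDLM-2 and 11.32 in L-540, against 9.63 in KM-H2, 8.44 in SUP-HD1, 7.81 in L-428, 5.74 in L-1236 and 5.04 in U-HO1 (limma adjusted p = 1). HAVCR2, which encodes the inhibitory receptor TIM-3, was 6.33 and 6.78 against 4.18 to 4.81. LAG3, another inhibitory receptor gene, was 9.13 in HDLM-2 and 3.99 in L-540, below background there and in every B-cell-derived line, so HDLM-2 alone carried its difference of 3.03.

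CXCL10, an interferon-induced chemokine gene that attracts T cells, was the only clearly separated member of 17 chemokine and receptor genes. It was 3.82 in HDLM-2 and 4.15 in L-540, below background, against 10.01 in KM-H2, 10.90 in L-1236, 6.31 in L-428, 11.55 in SUP-HD1 and 9.37 in U-HO1. The gene was at least 30.8-fold lower in the T-cell-derived lines (limma adjusted p = 0.597). CCL5, which attracts T cells and monocytes, overlapped, with 6.40 and 8.09 against 7.27 to 12.08. IL26, a cytokine gene of T cells, was 8.37 in HDLM-2, 10.70 in L-540 and 9.39 in SUP-HD1, and 2.36 to 2.91 in the other 4 lines.

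HRS-cell genes were found on both sides, with none of 24 clearly separated, near the share over all genes. TNFRSF8, which encodes the HRS surface marker CD30, was 9.47 and 10.99 in the T-cell-derived lines, just above U-HO1 at 9.15 and L-428 at 8.64, and below background in SUP-HD1 at 4.36. CD274, which encodes the immune checkpoint ligand PD-L1, was 11.28 in HDLM-2 and 8.49 in L-540, against 5.79 in U-HO1 and 11.52 in SUP-HD1. The median difference of this list was 0.82. The 12 MHC class II genes had a median difference of 0.94 with 10 members above 0, and none separated the groups, again near the share over all genes. HLA-DPB1, for instance, was 12.35 and 10.03 against 5.93 in L-1236 and 9.03 to 12.02 in the others. The medians of both lists stayed between 0.69 and 0.93 under the other scalings.

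**Figure D5:**
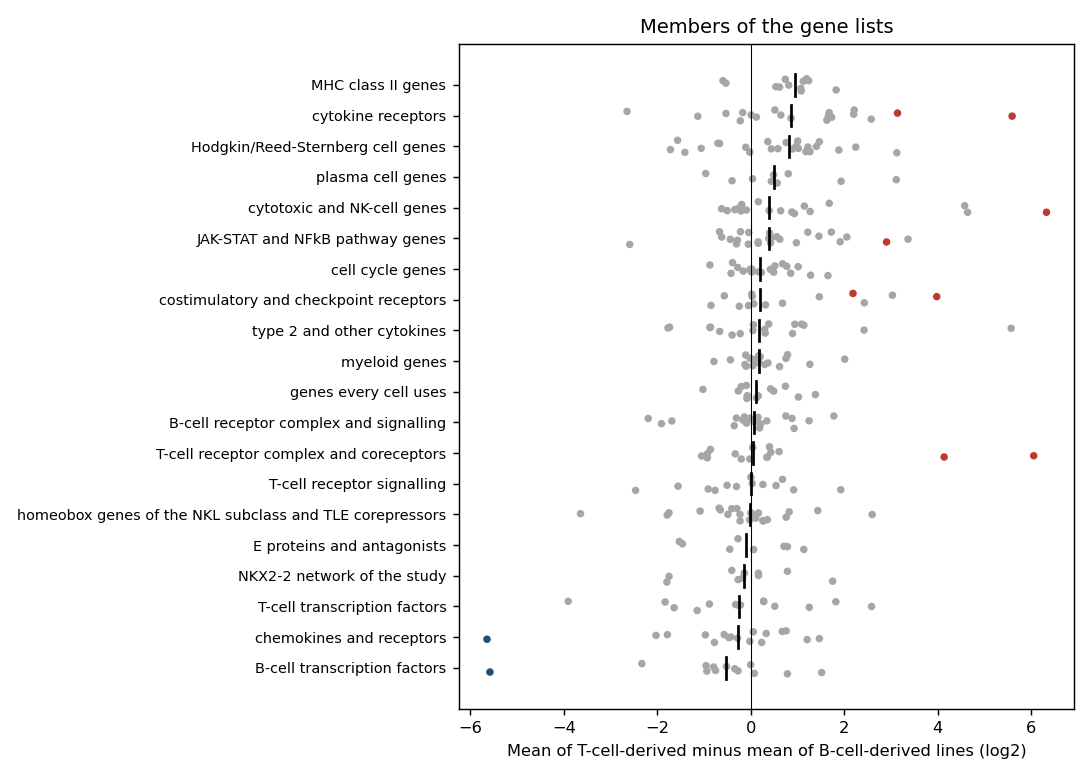
Difference between the means of the T-cell-derived and the B-cell-derived lines (log2, horizontal axis) for the measured members of 20 gene lists (vertical axis, ordered by median), with black bars at the list medians, red and blue points for members clearly separated with the T-cell-derived lines higher or lower, and grey points for all others. Medians run from -0.52 for B-cell transcription factors to 0.94 for MHC class II genes, and most members were not clearly separated.

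Of the genes studied in connection with NKX2-2 and the NKL homeobox subclass, 0 of 10 measured genes of the NKX2-2 network and 0 of 23 homeobox and TLE corepressor genes were clearly separated. With 0.47% of all genes clearly separated and higher and 0.106% lower, a count of 0 in lists this short is near the background and no result about their members. NKX2-2 was below background in all 7 lines, from 2.67 to 3.03. TLE1 was 2.81 in HDLM-2 and 3.66 in L-540 and lay under every B-cell-derived line by at least 1.25, but L-1236, at 4.91, was itself below background. HLX, a homeobox gene of T and NK cells, was above background in L-540 only, at 8.96. AUTS2, a chromatin regulator gene, was 8.68 in HDLM-2 and 3.03 in L-540, against 2.97 in SUP-HD1 and 7.86 to 10.19 in the other B-cell-derived lines.

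The 2 T-cell-derived lines also differed from each other. The median absolute difference between HDLM-2 and L-540 was 0.56 at the 93 genes higher in both and 0.33 at the 21 genes lower in both. It was 0.55 over all genes above background in at least 1 line. At 12 of the 21 both lines were below background, where levels have no exact value, so 0.33 is not comparable with 0.55. At 65 of the 93 the pair lay within 1 of each other. HDLM-2 was the higher of the pair at 51 of the 93. In all, 1203 of the 19775 genes differed by 2 or more between them with at least 1 of the 2 lines above background, GZMB, NKG7, LAG3 and AUTS2 among them. No like count was made for pairs of B-cell-derived lines. No pair of arrays had a higher r than the 0.894 of HDLM-2 and L-540. The B-cell-derived line nearest to the T-cell-derived lines at the 93 genes was SUP-HD1 for 25, KM-H2 for 23, L-1236 for 17, L-428 for 17 and U-HO1 for 11. At 22 of the 93, all B-cell-derived lines were below background.

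Other probe sets could be read for part of the separated genes. For 65 of the 114 clearly separated genes another probe set of the gene was above background in at least 1 line, 108 probe sets in all. The difference had the same sign at 105 of these, and the groups did not overlap, in the same direction, at 86. By gene, all such probe sets separated the groups the same way for 44 of the 65. Housekeeping and cell cycle lists gave 0 clearly separated members of 13 and 20, near the share over all genes, with median differences of 0.12 and 0.20. MKI67, a proliferation marker, was 9.64 and 9.71 in the T-cell-derived lines, against 7.58 to 9.19, at its brightest probe set. The groups overlapped at the other 3 MKI67 probe sets, with differences of 0.06, 0.70 and -0.09.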

How the data were processed

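Expression was measured with 1 HG U133 Plus 2.0 array (Affymetrix) in each of 7 HL cell lines. The authors background-corrected the intensities by RMA, normalized them by quantiles and deposited log2 values, from 1.99 to 14.17, for 54675 probe sets, using affy and limma in releases not given in the sources used here. All value columns were used. The number of arrays limits the precision.

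Levels were analysed for 54613 probe sets without the 62 controls. Names came from GEO's platform annotation, with 41097 probe sets of a single gene symbol, 1801 of several and 11777 of none, and 41043 symbols updated through RefSeq (GRCh38.p14). Only the first kind stood for genes. Levels under the background of an array have no exact value, so folds against a group wholly below it use values raised to it and are bounds. The fit used lmFit and eBayes (limma 3.58.1, R 4.3.3) without covariates, with Benjamini-Hochberg adjustment over all probe sets, and was tested on simulated data. Outlying lines were sought by Dixon's ratio.

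The groups, 20 gene lists (311 of 344 genes measured) and rules were chosen with earlier results of these data known. Genes named are the 15 with the widest gap in each direction, those past limma's threshold, every clearly separated list member with the 2 members of the largest difference per list, and all measured members of the T-cell receptor complex and B-cell transcription factor lists, of which a selection is described. Markers of the lines are named as well. The neighbours of separated genes and NKX2-2 were chosen after their values were seen. The alternatives changed the probe set of a gene, the scaling, the background, the gap, the limma settings and the lines. How often other pairs of lines separate as many genes was not counted.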

Additional observations from a re-analysis of the deposited data

Results flagged for a closer look

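Among the 5 B-cell-derived lines, 1 line stood far from the others in 10 of 93 measures examined, by Dixon's ratio of the gap to the range (above 0.710). Chance flags about 1 in 20 such groups. KM-H2 stood apart with CD3D at 8.89, against 4.84 in the next line, and with CR2, a complement receptor gene of B cells, at 10.98 against 4.92. L-1236 stood apart with CD27 at 8.07 against 4.59 and with TCF3, the E2A gene, at 10.51 against 9.10. Among other TCF3 probe sets, L-1236 was the highest of the 5 lines at some, such as 10.40, and the lowest at others, such as 7.73. L-1236 also stood apart with HLX at 5.05 against 4.16, where it was below its background, and with SPIB, which was lowest there at 4.37 against 7.10. SUP-HD1 stood apart with IL26 at 9.39 against 2.91, and U-HO1 with PDP1 at 7.89 against 6.53. At the second PDP1 probe set U-HO1 was instead the lowest of the 5 lines, at 3.73 and below background, against 5.09 to 5.76. The control values of U-HO1, 11.12 for 18S ribosomal RNA and 2.11 for the 3′ minus 5′ difference of ACTB, met the same criterion.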

How the results depend on the processing

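No paired analysis was possible because the lines are unrelated and their numbers only name them. Counts below are given as genes higher and lower in the T-cell-derived lines. The 93 and 21 clearly separated genes became 230 and 57 with a gap of 0.5 and 22 and 9 with a gap of 2. Without L-1236 and U-HO1 they became 166 and 108. With each line left out in turn they ran from 121 to 426 and from 29 to 141, most without HDLM-2 (379 and 141) and L-540 (426 and 99), and the higher genes also numbered 153 without SUP-HD1. The lower genes also numbered 65 without L-1236, 42 without SUP-HD1, 37 without KM-H2 and 32 without U-HO1. Leaving out lines can only add such genes by construction. The probe sets without overlap numbered 4486 in both directions together, 10861 without L-1236 and U-HO1 and 6088 to 15214 with each line left out. They numbered 14752 without HDLM-2, 15214 without L-540 and 7040 without L-1236.

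The limma counts of 7 and 1 became 13 higher with the probe set of the largest variance, 12 and 3 with the mean of all probe sets, 34 and 9 with values below background raised to it, and 16 and 4 with array weights. The lower count was 4 with only probe sets above background in at least 2 lines, 3 with an intensity trend and 2 without L-1236 and U-HO1. With each line left out the higher count ran from 3, without L-428, to 12, without HDLM-2, and the lower count from 1 to 4, with 4 without HDLM-2 or L-1236 and 2 without L-428 or SUP-HD1. Of the 114 clearly separated genes, 81 kept the call with the mean of all probe sets. The number was 88 with values raised to background and also 88 without probe sets ending in _x_at or _s_at. Without those probe sets only 17100 of the 19775 genes were measured. A gene that was not measured, such as BCL11A, counts as not kept. SPEF2, SOWAHC, LIN7A and CCDC3 lost their limma call without L-1236 and U-HO1. CD247 lost its call with the mean of all probe sets, PRF1 with quantile normalization repeated, and LIN7A with the probe set of the largest variance and with values raised to background. SEPTIN10 was not measured without probe sets ending in _x_at or _s_at, since both of its probe sets are of that kind. No difference of a clearly separated or called gene among those named changed sign, and 43 of 485 such values moved by more than the spread within groups. The median difference of all genes was -0.17 with values raised to background. Cause was not tested. Signal over background limits low genes, most in L-1236.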
